A study of Homo sapiens with 50 samples.

Results

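Microarray probes without a gene name were examined in H1299 cells, a human non-small cell lung carcinoma line, and in H1299shRAD9 cells, in which a retroviral vector stably expresses a short hairpin RNA against RAD9. A probe counted as unnamed where the array annotation repeated the probe name in place of a gene name, and 1895 of the 34127 non-control probes met this rule. Of these, 819 probes were well above background, the scanner software's call of a spot brighter than its surroundings, on at least 38 of the 50 arrays. The probes were thus selected on the detection calls of these same arrays, so detection is only described here. The annotation placed all but 23 of the 819 on hg19. One probe of the 819, A_33_P3213311, was marked as an outlier on every array and could not be tested, which left 818.

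Each cell line had 5 groups of 5 arrays, with RNA taken 4 h after 1 Gy of α particles (4He ions) or sham exposure. CTL cells were sham irradiated. DBP and BP were the directly irradiated cells and the bystander cells of dishes whose bystanders formed micronuclei. DBN and BN were the directly irradiated and bystander cells of dishes whose bystanders did not. Direct and bystander cells grew on separate Mylar surfaces of a concentric dish. H1299shRAD9 stood for 2 stable clones used interchangeably, and the sample labels do not say which clone gave which array. H1299 was untransfected, so the vector and the hairpin cannot be told apart. The labels call the 5 arrays of a group biological replicates.

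RAD9A itself was 3.65 ± 0.19 (SD, n = 5) in H1299shRAD9 CTL and 4.01 ± 0.13 (SD, n = 5) in H1299 CTL, on the scale of log2 intensity above the array median used throughout. This was 1.28-fold lower (exact permutation test, 2-sided, p = 0.0159, where 0.00794 is the smallest p possible). RAD9A in CTL did not meet the rule for calls given below, which also asks for p under 0.005 (adjusted p = 0.0562, limma). The paper selected its clones on reduced RAD9 protein in Western blots, and the arrays measure RNA alone. The differences in the irradiated and bystander groups (DBP, BP, DBN, BN) were -0.34, -0.13, 0.06 and -0.11 with exact permutation p of 0.0714, 0.317, 0.873 and 0.5. Transcripts of VIM, KRT8 and KRT18, markers of this epithelial carcinoma line with a mesenchymal component, were well above background on all 50 arrays. Among markers of other cell types, PECAM1, ALB and COL1A1 probes were well above background on 0 to 8 arrays, a probe each of CD3E, VWF, DCN and SFTPC was so on 32 to 48 arrays at median levels below 0, and 2 of 5 PTPRC probes were so on all 50. Between 55.4% and 83.4% of probes were well above background on an array (median 63.5%), and the median intensity ranged from 68.4 to 344. A set of 5 H1299 arrays stood apart by correlation with the others or by detection, namely DBP replicates 1 and 2, DBN replicates 1 and 2 and BP replicate 2. Of the 13 slides, 2 held arrays of both cell lines.

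Much of the human genome outside annotated genes is transcribed, into long noncoding RNAs, antisense transcripts and copies of genes. Processed pseudogenes, which are reverse-transcribed copies of mRNAs scattered over the chromosomes, are especially many for highly expressed genes such as those of ribosomal proteins. A probe of 60 bases placed in such a copy can also bind the RNA of the parent gene, so that a signal need not come from the position where the probe lies. For this reason the sequences of the unnamed probes were compared with those of all named probes.

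The following unnamed probes share a stretch with a probe for a named gene in the same orientation, and are shown because their levels followed that gene across the arrays, less closely for A_33_P3222598. Capitals mark bases identical to the named probe within the shared stretch.
A_24_P263543 (chr10:91738701-91738760, plus strand, shared with SNRPD2): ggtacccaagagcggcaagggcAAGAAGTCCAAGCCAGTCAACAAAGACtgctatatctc
A_33_P3342430 (chrX:153850679-153850738, minus strand, shared with ATF4): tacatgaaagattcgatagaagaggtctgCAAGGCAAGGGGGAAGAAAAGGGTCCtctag
A_33_P3276927 (chr21:18889330-18889389, minus strand, shared with BTF3L4): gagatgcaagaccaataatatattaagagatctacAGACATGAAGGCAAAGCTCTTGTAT
A_33_P3221708 (chr2:17567634-17567693, plus strand, shared with PSMC1): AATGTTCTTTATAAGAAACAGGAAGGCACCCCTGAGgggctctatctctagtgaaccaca
A_33_P3336038 (chr11:77445357-77445416, minus strand, shared with FTH1): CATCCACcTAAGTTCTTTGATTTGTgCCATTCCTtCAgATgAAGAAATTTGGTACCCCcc
A_33_P3333187 (chr1:143905980-143906039, minus strand, shared with FAM72A): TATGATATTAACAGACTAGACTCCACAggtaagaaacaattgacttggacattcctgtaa
A_33_P3235831 (chr10:65187765-65187824, plus strand, shared with PRELID1): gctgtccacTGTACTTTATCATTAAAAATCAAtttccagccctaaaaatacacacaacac
A_32_P10100 (chr1:205320559-205320618, plus strand, shared with SNRPG): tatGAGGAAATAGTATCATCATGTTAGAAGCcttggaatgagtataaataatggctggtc
A_33_P3222598 (chr21:39874471-39874530, plus strand, shared with SNRPG): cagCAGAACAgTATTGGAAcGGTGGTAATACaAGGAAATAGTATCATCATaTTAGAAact

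A further set of unnamed probes shares no such stretch with a named probe, so that no capitals are used. They are shown as examples of probes that differed between the cell lines or between replicate numbers.
A_33_P3317460 (chr2:132056255-132056314, minus strand): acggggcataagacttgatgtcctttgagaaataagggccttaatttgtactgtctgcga
A_33_P3227225 (chr2:132056454-132056513, minus strand): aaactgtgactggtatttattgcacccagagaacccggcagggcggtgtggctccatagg
A_33_P3352407 (chr2:181737725-181737784, minus strand): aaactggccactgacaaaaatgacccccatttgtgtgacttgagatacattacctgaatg
A_33_P3210561 (chr2:26363124-26363183, minus strand): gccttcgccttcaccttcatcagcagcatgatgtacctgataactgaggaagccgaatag
A_33_P3392350 (chr11:93800172-93800231, minus strand): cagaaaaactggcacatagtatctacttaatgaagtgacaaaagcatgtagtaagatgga
A_24_P126741 (chr5:161178569-161178628, minus strand): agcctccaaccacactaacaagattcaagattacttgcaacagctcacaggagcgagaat
A_33_P3253812 (chr21:15051306-15051365, plus strand): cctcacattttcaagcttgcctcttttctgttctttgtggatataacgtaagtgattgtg
A_33_P3260322 (chr9:127279559-127279618, minus strand): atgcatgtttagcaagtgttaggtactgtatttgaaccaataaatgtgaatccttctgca

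The 819 unnamed probes were spread over the genome, with 71 on chromosome 1, 61 on chromosome 7, 59 on chromosome 2, 48 on the X chromosome and 43 on chromosome 17. Their median level was 2.64, against 2.90 for the 19288 named probes that passed the same detection threshold. The levels were wider apart than those of named probes, with 278 (33.9%) above 5 and 185 (22.6%) below 0, against 25.5% and 15.3% of named probes. The median GC content was 45.0% in unnamed and 43.3% in named probes. Well above background on all 50 arrays were 684 unnamed probes (83.5%) and 88.3% of named probes. The detection threshold divided probes of like level. A_33_P3256883 on chromosome 19 and A_33_P3266022 on chromosome 11, the 2 probes on exactly 38 arrays, had mean levels of -1.52 and -1.42, and A_33_P3264399 on the X chromosome and A_33_P3281478 on chromosome 15, among the 4 probes on 37 arrays, had -1.36 and -1.29.

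Of the 819 unnamed probes, 91 shared an unbroken run of at least 20 bases with a named probe, 71 in the same and 20 in the opposite orientation. The longest run was 50 bases. The named probe lay on another chromosome for 58 of the 71. Genes of ribosomal proteins accounted for 21 of the 71, and all 21 of these unnamed probes had a level above 5. Among the 71 the median level was 7.84, against 2.38 for unnamed probes that shared no run. The unnamed probes thus held a bright class that resembled highly expressed genes in sequence. Allowing mismatches (ungapped stretches of 23 to 60 bases with up to 11 mismatches) added 67 unnamed probes, 55 of them in the same orientation, so that 158 (19.3%) resembled a named probe. Of the 278 unnamed probes with a level above 5, 87 were among these.

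The levels of unnamed and named probe were compared over the 50 arrays after group means had been removed, as a description, since all probes of an array share its RNA and labeling. For runs in the same orientation the median Pearson r was 0.84 over 70 pairs, and 38 pairs exceeded 0.8. For runs in the opposite orientation the median r was 0.10 and no pair exceeded 0.8. The mismatched stretches in the same orientation had a median r of 0.79 over 52 pairs, of which 25 exceeded 0.8. The range in the same orientation was wide, from -0.48 to 0.99, so a shared run did not by itself go with a shared level.

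Individual pairs covered transcripts of several cellular machines. A_24_P263543 and SNRPD2, a core protein of the spliceosome, had r = 0.98 with a run of 27 bases. A_33_P3342430 and ATF4, the transcription factor of the integrated stress response, had r = 0.96 with 26 bases. A_33_P3276927 and BTF3L4 had r = 0.96 with 25 bases, and A_33_P3221708 and PSMC1, an ATPase of the proteasome, had r = 0.91 with 36 bases. A_33_P3336038 matched the probe for FTH1, the ferritin heavy chain that stores iron, over 58 bases with 5 mismatches and had r = 0.98. Levels of the unnamed and named probes of a pair are not comparable, since probes differ in how brightly they bind.

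**Figure D1:**
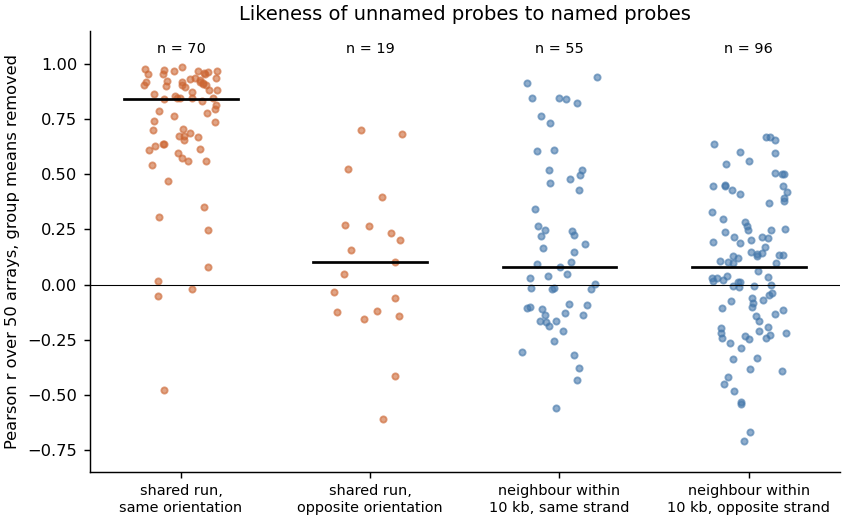
Each point is an unnamed probe, plotted as the Pearson r of its level with that of a named probe over the 50 arrays after group means were removed, and bars are medians. Pairs that share a run of at least 20 bases in the same orientation had a median of 0.84, those in the opposite orientation 0.10, and neighbors within 10 kb on the same or the opposite strand 0.08 each.

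For most unnamed probes position told little of the level. The nearest named probe lay a median of 29.3 kb away for the 795 unnamed probes that had one on their chromosome or scaffold, with 218 within 10 kb and 160 more than 100 kb away. It was on the same strand for 360 and on the opposite strand for 435. Only 21 unnamed probes lay between probes of a single gene on the same strand, and 22 between probes of a gene on the opposite strand only. Whether a probe lies in an exon, an intron or a UTR was not determined here. With a neighbor within 10 kb that was itself in the table, the median r was 0.08 over 55 pairs on the same strand, of which 12 exceeded 0.5, and 0.08 over 96 pairs on opposite strands, of which 11 did. Between 10 and 100 kb the median r was 0.08 over 249 pairs, of which 26 exceeded 0.5. Beyond 100 kb it was 0.14 over 83 pairs, of which 10 did. As a measure of what probes of a single transcript unit show, the outermost probes of 3015 named genes had a median r of 0.31, and 32.6% exceeded 0.5.

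The unnamed probes most like a neighbor within 10 kb were on the neighbor's strand. A_33_P3260322 lay 658 bases from a probe for NR6A1, an orphan nuclear receptor of germ cells, with r = 0.94. Differences between replicate numbers were not removed from r, and in H1299shRAD9 they held 88.4% of this probe's variance within groups. Their part in this r was not tested. A_33_P3403356 lay 7007 bases from a probe for TIMM23, part of the protein import channel of the mitochondrial inner membrane, with r = 0.92. A_33_P3409553 lay 6851 bases from a probe for FBLIM1, a protein of cell-matrix contacts, with r = 0.85, and also shares 31 bases with a probe for LOC648771 (r = 0.67). A_33_P3419735 overlapped a probe for CDC27, a subunit of the anaphase-promoting complex, with r = 0.85, but these probes also share 29 bases. Of 29 pairs of unnamed probes within 10 kb of each other, 9 had r above 0.5 and 8 of these were on the same strand. Unnamed probes also resembled each other in sequence, in 81 pairs of 105 probes, and the 73 pairs in the same orientation had a median r of 0.86. Members of such pairs are not independent measurements.

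The comparison of the cell lines asked how transcript levels differed between H1299shRAD9 and H1299 within each of the 5 states, which share no arrays. Hairpin, vector and clones differ together between the lines, and most slides held a single line. Unnamed probes were higher in H1299shRAD9 more often than named probes. The median difference, H1299shRAD9 minus H1299, was 0.26 over the unnamed probes in CTL, against 0.06 over all features tested. In DBP it was 0.20 against 0.10, in BP 0.14 against 0.12, in DBN 0.26 against 0.16 and in BN 0.29 against 0.13. Higher in H1299shRAD9 in all 5 states were 414 unnamed probes (50.6%) and 37.8% of named probes, and lower in all 5 were 45 (5.50%) and 18.8%. The excess of the unnamed median over that of all features was 0.20 in CTL and 0.17 in BN, but 0.11 in DBP, 0.10 in DBN and 0.02 in BP. It changed with the features tested. Without the detection filter, which brought the features to 34123 to 34125 and left the 818 unnamed probes as they were, the excess was 0.0681 in CTL, 0.13 in BN and 0.18 in DBN, and it was below 0 in DBP and BP.

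A feature was called where limma gave p under 0.005 and a Benjamini-Hochberg adjusted p under 0.10 over all features tested. In CTL 121 unnamed probes (14.8%) were called higher in H1299shRAD9, where the background over all features was 6.89%, and 14 (1.71%) were called lower, where it was 6.05%. In BN 82 (10.0%) were called higher against 4.46%, and 7 (0.856%) lower against 3.01%. In DBP 28 (3.42%) were higher against 1.85% and 6 (0.733%) lower against 3.53%. In BP 39 (4.77%) were higher against 4.06%, a share near the background, and 3 (0.367%) lower against 2.5%. In DBN 17 (2.08%) were higher against 1.26% and 2 (0.244%) lower against 1.09%. The share called lower was thus under the background in all 5 states.

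The same was seen among probes that were not near the detection threshold. Of the 683 unnamed probes tested that were well above background on all 50 arrays, 13.5% were called higher in CTL, against 6.31% of named probes of this kind, and 10.2% against 4.26% in BN. In CTL the median difference was 0.40 in unnamed probes with a level under 0, 0.34 from 0 to 2, 0.22 from 2 to 5 and 0.20 above 5, against 0.11, -0.03, 0.02 and 0.11 in named probes. In BP the GC content went with the difference in both kinds of probe, with medians of 0.39 in unnamed and 0.20 in named probes of up to 40% GC, and 0.01 and -0.01 in those above 50%. The design series of the probe went with the difference as well. Among probes whose names begin with A_33, 16.7% of 623 unnamed and 9.36% of 6830 named probes were called higher in CTL, and among those that begin with A_24, 7.39% of 176 and 5.24% of 3168 were. The parts of GC content and of the design series in the result were not tested.

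In CTL all 5 H1299shRAD9 arrays lay above all 5 H1299 arrays for 99 of the 819 unnamed probes (12.1%) and below for 13 (1.59%), against 7.10% and 6.08% of all features. In BN this held for 94 (11.5%) and 8 (0.977%), against 5.97% and 2.97%. The counts were 38 and 7 in DBP (2.95% and 4.20% of all features), 38 and 4 in BP (5.88% and 2.86%) and 36 and 2 in DBN (4.15% and 1.38%). As a summary of each array, the median deviation of the unnamed probes from their mean over arrays, less that of all features, was taken. It lay between 0.06 and 0.11 on the H1299shRAD9 CTL arrays and between -0.32 and -0.01 on the H1299 CTL arrays, so the groups did not overlap. In BN it was 0.03 to 0.24 against -0.18 to -0.05, again without overlap, while the arrays of the other 3 states overlapped. Arrays of a single state from both lines shared a slide only for H1299shRAD9 BP replicate 1 and H1299 BP replicate 5, and there the median difference was 0.07 over unnamed probes and 0.25 over all features. A 5′ minus 3′ index, the median over named genes of the most 5′ less the most 3′ probe after each gene's mean over the arrays was removed, ran from -0.18 to -0.06 on the H1299shRAD9 CTL arrays and from -0.13 to 0.13 on the H1299 CTL arrays. The part of RNA quality and of the slides in these differences was not tested.

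**Figure D2:**
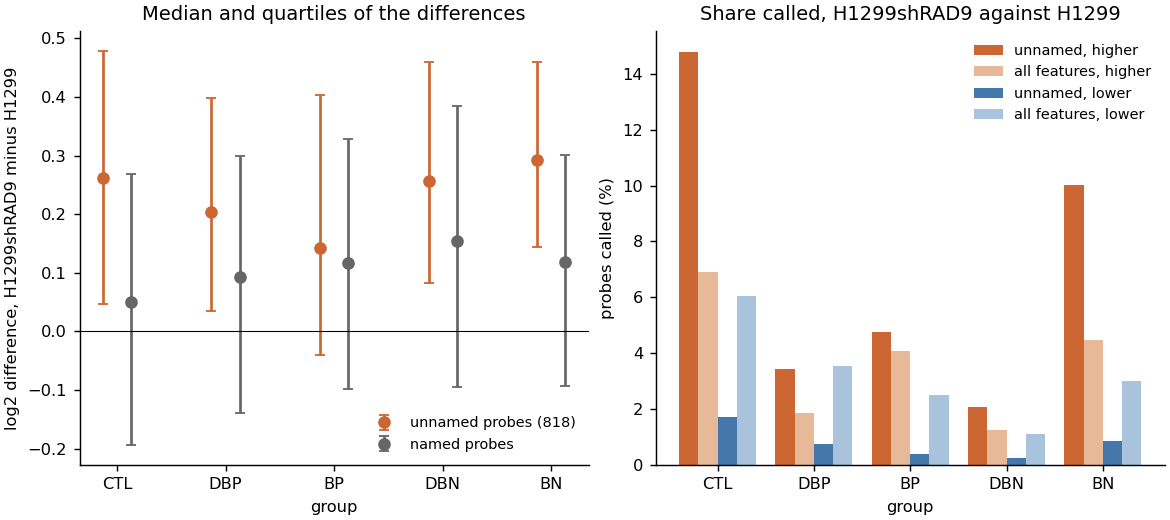
Left, the median (point) and quartiles (bars) of the log2 difference H1299shRAD9 minus H1299 over unnamed and named probes in each group of 5 arrays per line. Right, the percentage of unnamed probes and of all features called higher or lower in H1299shRAD9, where 14.8% of unnamed probes and 6.89% of all features were called higher in CTL.

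The counts moved with the scaling of the arrays. With 75th percentile scaling the median of all features fell by more than 0.1 relative to median scaling in BP and DBN, to -0.0045 and 0.02, and the split of unnamed probes into higher and lower was 16 and 8 in DBP, 18 and 8 in BP, 13 and 6 in DBN and 45 and 10 in BN. These were 1.96% and 0.978%, 2.20% and 0.978%, 1.59% and 0.733%, and 5.50% and 1.22% of the unnamed probes, against 1.47% and 4.52%, 2.08% and 4.14%, 1.09% and 3.32%, and 2.46% and 4.17% of all features. With normexp background correction it was 67 and 19 in CTL (8.19% and 2.32%, against 3.15% and 8.64% of all features), 2 and 0 in DBP (against 0.149% and 0.542%) and 8 and 1 in DBN (0.978% and 0.122%, against 0.562% and 0.895%), and no unnamed probe and no feature was called in BN (smallest adjusted p of an unnamed probe 0.252 with limma, 244 unnamed probes, or 29.8%, at an unadjusted p under 0.05, against 19.1% of all features), where the median of all features was 0.57. With the slide as a random block, 46 and 7 were called in CTL (5.62% and 0.856%, against 3.35% and 4.25% of all features). Without the 5 arrays that stood apart the counts were 25 and 6 in DBP, 40 and 4 in BP and 31 and 3 in DBN, where 2.57% and 3.46%, 5.08% and 2.78%, and 2.86% and 2.19% of all features were called. Leaving out replicate 3, 4 or 5 in both lines gave 56, 83 or 71 calls in CTL, 6, 6 or 4 in DBP, 8, 25 or 7 in BP and 50, 31 or 41 in BN. The backgrounds for the same fits were 6.73%, 7.08% or 7.72% in CTL, 1.55%, 1.48% or 1.48% in DBP, 2.25%, 3.14% or 1.69% in BP and 3.62%, 2.96% or 3.92% in BN. The unnamed shares without replicate 3 or 4 were 6.85% or 10.1% in CTL, 0.733% in both fits of DBP, 0.978% or 3.06% in BP and 6.11% or 3.79% in BN. They were thus near the background in CTL without replicate 3 and below it in DBP and BP. In that CTL fit 6.23% were higher against 3.24%, and 0.611% lower against 3.49%. In DBN, 33, 6, 0 and 1 were called without replicate 1, 2, 3 and 4. These were 4.03%, 0.733%, 0% and 0.122%, against backgrounds of 4.85%, 1.32%, 0.378% and 0.398%.

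Of the 818 unnamed probes, 607 were called in no state, 143 in 1, 41 in 2, 18 in 3, 5 in 4 and 4 in all 5, and none was called in both directions. Called in at least 3 states were 27 (3.30%, 24 higher and 3 lower), against 4.32% of named probes (342 higher and 491 lower). Since the differences of the following probes were used to choose them, their values are a description.

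A_33_P3317460 showed the largest difference among the 24 higher probes, a mean of 1.01 over the 5 states. Its levels in CTL were 4.35, 4.31, 3.99, 3.95 and 4.24 in H1299shRAD9 and 3.44, 3.20, 2.80, 3.22 and 3.35 in H1299. All H1299shRAD9 arrays were above all H1299 arrays in each state. The difference was 0.97 ± 0.14 (SE) in CTL (adjusted p = 0.0022, limma), 1.07 in BN, 0.85 in DBP, 0.71 in BP and 1.45 in DBN. Without the arrays that stood apart it was 0.64 in DBP and was no longer called. The calls in CTL and BN held with any replicate left out, and those in DBP, BP and DBN did not. A_33_P3227225, on the same strand 140 bases away, followed it with r = 0.88 over the 50 arrays and a mean difference of 0.83. Its levels in CTL were 1.62 to 2.39 in H1299shRAD9 and 1.09 to 1.65 in H1299, with a slight overlap. A_33_P3227225 also matches another unnamed probe on chromosome 2, A_33_P3363254, over 52 bases with 1 mismatch, but their levels had r = -0.23. The nearest named probe, LOC440910, lies on the opposite strand 444 bases from A_33_P3317460, and its differences of 0.42 in CTL and 0.56 in BN were not called.

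A_33_P3222598 on chromosome 21 was 4.60, 4.51, 4.68, 4.72 and 4.30 in H1299shRAD9 CTL and 3.65, 3.71, 3.71, 3.55 and 3.69 in H1299 CTL. The groups were apart, by 0.90 ± 0.11 (SE, adjusted p = 5.7e-04, limma), and it was called in the other states too, with differences of 0.89 to 1.18. Without the arrays that stood apart it was 0.66 in DBP and was not called. It lies 99926 bases from a probe for ERG but its sequence matches a probe for SNRPG, a small nuclear ribonucleoprotein of the spliceosome, over 54 bases with 4 mismatches. Counted from the 5′ end of the SNRPG probe, with that probe's base named before the base of A_33_P3222598, these are A12G, T21C, G33A and G52A. The levels of the pair had r = 0.59. This SNRPG probe was 0.33 higher in CTL and 0.26 to 0.48 higher in the other states. A_32_P10100, which shares an exact run of 28 bases with this SNRPG probe and had r = 0.97 with it, was 0.30 to 0.54 higher. Another SNRPG probe was 0.44 higher in CTL and 0.30 to 0.56 higher in the other states. The difference of A_33_P3222598 was thus larger than that of either SNRPG probe, and a test of this was not made.

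A_33_P3235831 on chromosome 10 shares 23 bases with PRELID1, a protein that carries lipid within mitochondria, and had r = 0.85 with it. Its levels in CTL were 6.60, 6.59, 7.21, 6.96 and 6.64 in H1299shRAD9 and 6.17, 5.58, 5.99, 5.76 and 6.11 in H1299. It was called in all 5 states, at 0.88 ± 0.16 (SE) in CTL (adjusted p = 0.0069, limma) and 0.95 to 1.06 in the others, and PRELID1 differed by 0.42 to 0.63 without being called. Without the arrays that stood apart the differences in DBP and BP were 0.71 and 0.89 and were not called.

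Lower levels and weaker cases were also among the 24 probes called higher in H1299shRAD9, not all of which are named here. A_33_P3372090 on chromosome 5, 20214 bases from a probe for BTNL3, had 1.17 to 1.69 in H1299shRAD9 CTL and -0.01 to 0.73 in H1299 CTL, with a difference of 1.02, and was called in 3 states. A_24_P246777 on the X chromosome, 2959 bases from a probe for XKRX on the opposite strand, had differences of 0.58 to 0.97 and was called in all states except DBN. A_32_P53558 on chromosome 3, A_33_P3357879 on chromosome 10 and A_33_P3291329 on chromosome 7, each called in 3 states, differed by 0.36, 0.70 and 0.82 in CTL.

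Called lower in H1299shRAD9 in at least 3 states were 3 unnamed probes. A_33_P3352407 on chromosome 2, 109119 bases from a probe for UBE2E3, a ubiquitin-conjugating enzyme, was 8.70, 8.55, 8.52, 8.63 and 8.32 in H1299shRAD9 CTL and 9.60, 9.12, 9.29, 9.33 and 9.09 in H1299 CTL, without overlap (difference -0.74 ± 0.12 (SE), adjusted p = 0.00453, limma). It was called in every state except DBN, where it differed by -0.93, and UBE2E3 differed by -0.02 in CTL. A_33_P3210561, 3067 bases from a probe for RAB10, a small GTPase of vesicle transport, on the opposite strand, was 2.42, 2.29, 2.69, 2.64 and 2.43 against 3.31, 2.93, 3.20, 3.16 and 3.05. The difference was -0.64 ± 0.12 (SE, adjusted p = 0.00674, limma), and RAB10 differed by 0.26 and was not called. A_33_P3392350, the third, is described with the replicate numbers.

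**Figure D3:**
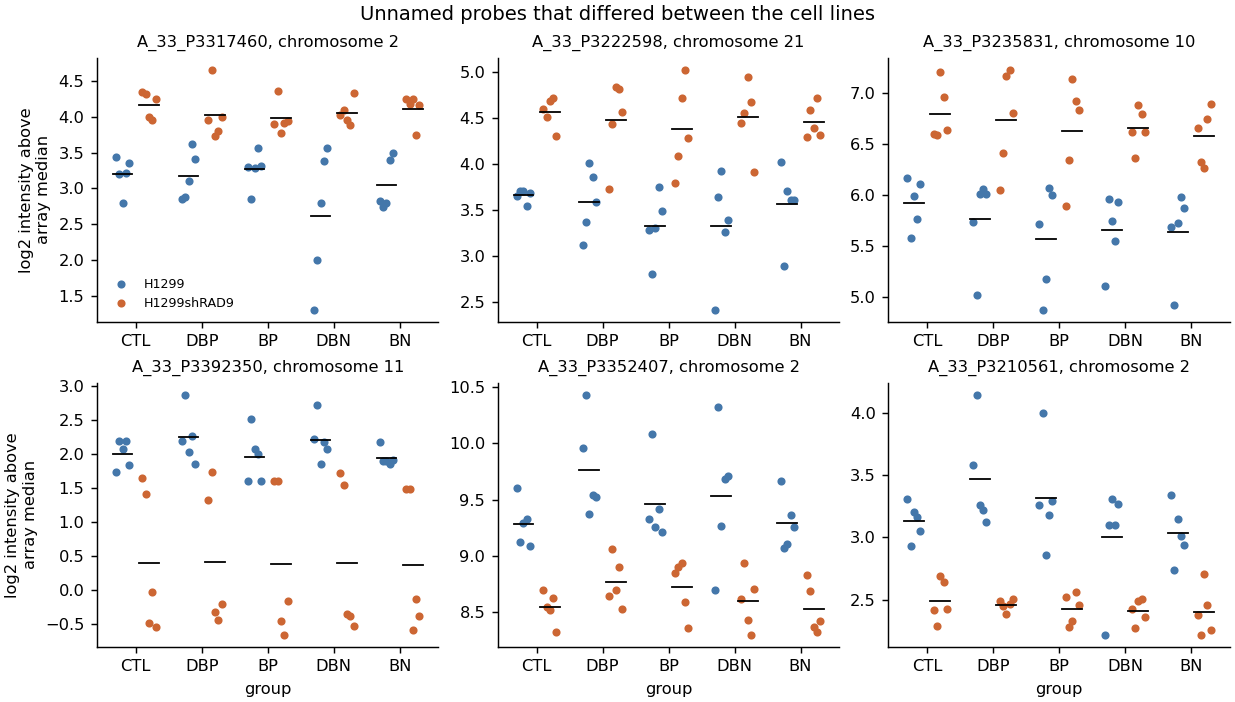
Log2 intensity above the array median of 6 unnamed probes, with a point for each of the 5 arrays of a group and a bar at the group mean. In CTL all arrays of the 2 lines are apart for each probe, with the upper 3 probes higher and the lower 3 lower in H1299shRAD9, and A_33_P3392350 splits into 2 levels in H1299shRAD9.

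Within H1299shRAD9 some unnamed probes followed the replicate number rather than the exposure, which was noticed after the values had been seen. A_33_P3392350 was 1.33 to 1.73 on the 10 arrays of replicates 1 and 2 and -0.66 to -0.03 on the 15 arrays of replicates 3, 4 and 5, in all 5 states. In CTL the values were 1.65, 1.41, -0.49, -0.03 and -0.55. H1299 showed 1.61 to 2.87 on its 25 arrays. The called differences between the lines, -1.58 to -1.83, therefore average over 2 levels in H1299shRAD9, of which the higher reached into the range of H1299. The nearest named probe, for HEPHL1, lies 47084 bases away on the opposite strand. In each state the call was lost without replicate 3, 4 or 5, where the difference ranged from -1.31 to -1.77.

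Other unnamed probes had the same division. A_24_P126741 was 2.83 to 3.45 in replicates 1 and 2 and 1.26 to 1.82 in replicates 3 to 5 of H1299shRAD9. A_33_P3253812 had the opposite order, -1.61 to -0.74 against -0.19 to 0.70. A_33_P3260322, with its neighbor NR6A1, was 2.13 to 3.01 against 3.25 to 4.26. No array of one set reached the other in these 3 probes. In all, 11 unnamed probes (1.34%) had replicate means with an SD above 0.5 and over 80% of their variance within groups between replicate numbers in H1299shRAD9, against 3.05% of all features. In H1299 there were 2 (0.244%), against 0.771% of all features. Among the 11, A_24_P7750 on chromosome 5 and A_24_P247074 on chromosome 10 share 24 bases with each other and had r = 0.97, so they count as a single signal.

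A slide that held 2 arrays each of replicates 2 and 3 of H1299shRAD9 showed the same split. On it A_33_P3392350 was 1.49 to 1.54 in replicate 2 and -0.46 to -0.32 in replicate 3, A_24_P126741 was 3.25 to 3.31 and 1.26 to 1.77, A_33_P3253812 was -1.43 to -1.12 and -0.04 to 0.29, and A_33_P3260322 was 2.80 on both arrays and 3.81 to 3.85. Which of the stable clones gave each replicate is not in the labels, and its part in the split was not tested.

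**Figure D4:**
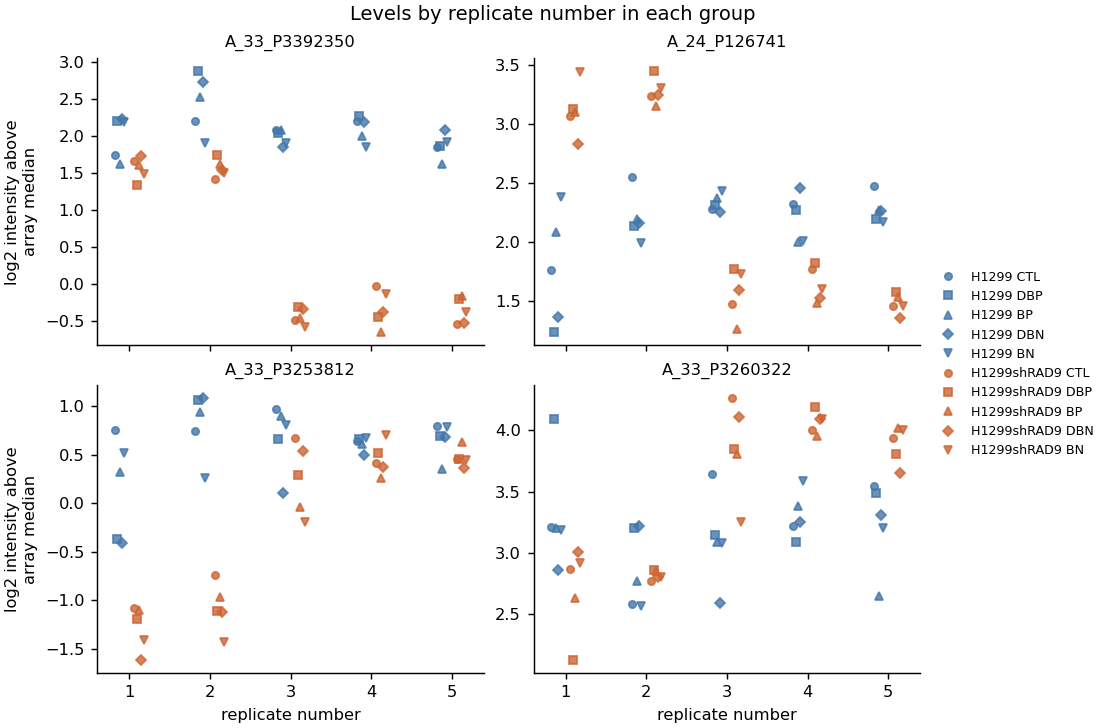
Log2 intensity above the array median of 4 unnamed probes by replicate number, with color for the cell line and a marker shape for each group. In H1299shRAD9 replicates 1 and 2 lie apart from replicates 3, 4 and 5 in all 5 groups, for example at 1.33 to 1.73 against -0.66 to -0.03 for A_33_P3392350.

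The comparison of each irradiated group with its controls asked which unnamed probes responded at 4 h, with the replicate number as a block and a call at p under 0.006 and adjusted p under 0.10. The 4 comparisons of a line share its 5 CTL arrays. Few unnamed probes were called. In H1299shRAD9, 2 were called in DBP, both lower, where 1.32% of all features were called, 6 in BP (3 higher and 3 lower) where it was 1.61%, 9 in DBN (5 higher and 4 lower) where it was 2.82%, and 0 in BN where it was 0.0299%. These were 0.244%, 0.733%, 1.10% and 0% of the unnamed probes. In BN 92 unnamed probes (11.2%) had an unadjusted p under 0.05 with limma, against 13.4% of all features.

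In H1299 no unnamed probe was called, with backgrounds of 0.0348% in DBP, 0.00995% each in DBN and BP, and 0% in BN. The numbers with an unadjusted p under 0.05 with limma were 47 in DBP (5.75%, against 5.56% of all features), 28 in DBN (3.42% against 3.25%), 110 in BP (13.5% against 5.68%) and 27 in BN (3.30% against 3.41%). The interaction of line and exposure also called none, with backgrounds of 0% for DBP, 0% for BP, 0.0149% for DBN and 0% for BN, and 73, 108, 62 and 67 unnamed probes at an unadjusted p under 0.05 (8.92%, 13.2%, 7.58% and 8.19%, against 7.75%, 6.52%, 7.03% and 7.31% of all features). The larger shares in BP moved with single arrays. Without the arrays that stood apart, 50 unnamed probes in BP of H1299 had such a p (6.12%, against 3.93% of all features). In the interaction for BP 79 had it (9.66% against 5.47%). With each replicate left out the numbers ranged from 50 to 150 and from 47 to 151. In each of these fits the unnamed share was above that of all features. Without the arrays that stood apart, 5 unnamed probes (0.611%) were called in the interaction for DBN, against 1.03% of all features. Same-numbered arrays of H1299shRAD9 were alike in all 4 comparisons. Without the replicate block the counts were 0, 0 and 2 in DBP, BP and DBN, with backgrounds of 0.114%, 0% and 0.667%. They also turned on single replicates. Without replicate 1, 2, 3 and 4 the count was 36, 0, 0 and 1 in DBP, without replicate 1, 2, 4 and 5 it was 1, 0, 0 and 0 in BP, and without replicate 1, 2, 3, 4 and 5 it was 2, 1, 0, 0 and 18 in DBN. The 36 calls in DBP were 4.41% of the unnamed probes, against 4.88% of all features in that fit, and the 18 in DBN were 2.20% against 3.41%. In the fits of DBP without replicate 2, 3 and 4 the backgrounds were 0%, 0.0249% and 0.418%. In BP they were 0.707%, 0%, 0% and 0% without replicate 1, 2, 4 and 5. In DBN they were 0.886%, 0.274%, 0.129% and 0.159% without replicate 1, 2, 3 and 4.

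A_24_P101561 on chromosome 7 was called in both BP and DBN of H1299shRAD9. Its levels were 3.02, 2.74, 2.91, 2.89 and 3.14 in CTL, 3.44, 3.13, 3.40, 3.24 and 3.81 in BP and 3.72, 3.29, 3.64, 3.93 and 3.44 in DBN. All DBN arrays were above all CTL arrays, and the BP arrays overlapped CTL by a single array. It rose by 0.46 ± 0.09 (SE, adjusted p = 0.0603, limma) in BP and by 0.66 ± 0.12 (SE, adjusted p = 0.0577, limma) in DBN. In DBP and BN the differences were 0.44 and 0.57, and in H1299 they were -0.14, -0.15, -0.28 and 0.01 in DBP, BP, DBN and BN. PUS7, a pseudouridine synthase whose probe lies 154777 bases away, differed by 0.00 in BP and -0.08 in DBN.

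A_24_P358305 shares 28 bases with TPM4, a tropomyosin of the actin cytoskeleton that lies on another chromosome, and had r = 0.91 with it. It was 5.01, 4.89, 4.98, 4.78 and 4.88 in H1299shRAD9 CTL and 5.25, 5.67, 5.50, 5.61 and 5.68 in DBN, without overlap. It rose by 0.64 ± 0.11 (SE, adjusted p = 0.0577, limma) and TPM4 by 0.67 ± 0.11 (SE, adjusted p = 0.0545, limma), so that gene and unnamed probe were called together. In DBP, BP and BN it differed by 0.56, 0.47 and 0.72 without being called.

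Smaller rises were called in BP for A_33_P3329991, a bright probe without a position, from 7.82 ± 0.24 in CTL to 8.26 ± 0.30 (SD, n = 5), and for A_33_P3292218 on chromosome 5, from 3.37 ± 0.11 to 3.80 ± 0.17 (SD, n = 5). Both rose by 0.43. In DBN A_33_P3340454, 18221 bases from a probe for SPG20 on chromosome 13, rose by 1.04 ± 0.24 (SE, adjusted p = 0.0945, limma), but it was well above background on 1 of 5 CTL arrays, so its CTL level is close to a bound.

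Falls were called in DBP, BP and DBN of H1299shRAD9. A_33_P3301097 on chromosome 4 fell by 2.66 in DBP (adjusted p = 0.0704, limma), yet it was marked as an outlier on 18 arrays, only 2 DBP arrays and 3 CTL arrays of H1299shRAD9 gave a value, and the block fit drops the arrays without a pair. Its values were 3.89, 5.02 and 2.43 in CTL and 0.48 and 3.10 in DBP, and without the block the difference was -1.99 and was not called. A_33_P3301095, 462 bases away on the same strand and measured on all arrays, differed by -0.17. A_32_P48615 on chromosome 15 fell by 0.40 in DBP, from 2.91 to 3.42 on the CTL arrays to 2.43 to 3.10. In BP A_33_P3304097 and A_33_P3291329 on chromosome 7 and A_33_P3378697 on an unlocalized scaffold of chromosome 7 fell by 1.18, 0.41 and 0.54. In DBN A_33_P3407691 on an unplaced scaffold, A_33_P3399755 on chromosome 15 and A_24_P636974 on chromosome 7 fell by 0.76, 0.60 and 0.57. A_33_P3304097 and A_24_P636974 were dim, with mean levels of -0.18 and -0.56 over the arrays.

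In BN of H1299shRAD9 the smallest p belonged to A_33_P3367970, 12166 bases from a probe for TEX12, with a difference of 0.52, and to A_33_P3413997, 636 bases from a probe for DUSP1, a phosphatase that dampens MAP kinases, on the opposite strand, with -0.50 (adjusted p = 0.171 for both, limma). Neither was called in BN, and A_33_P3367970 was called in DBN at 0.49.

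The unnamed probe with the smallest p in DBP and DBN of H1299, A_33_P3333187, was lower in directly irradiated cells. It shares 27 bases with a probe for FAM72A, a gene expressed in proliferating cells, and had r = 0.92 with it. In H1299 its levels were 1.77, 1.45, 1.80, 1.83 and 1.98 in CTL, -0.11, 0.43, 1.06, 1.18 and 1.20 in DBP and -0.43, 0.26, 0.79, 1.09 and 1.42 in DBN. All 10 arrays of directly irradiated cells lay below all 5 CTL arrays. The differences of -1.02 ± 0.19 (SE, adjusted p = 0.276, limma) and -1.14 ± 0.27 (SE, adjusted p = 0.479, limma) were not called, and bystander cells differed by -0.08 in BP and -0.07 in BN.

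In H1299shRAD9 A_33_P3333187 was 1.60 ± 0.20 in CTL, 1.33 ± 0.18 in DBP and 1.16 ± 0.32 in DBN (SD, n = 5), with differences of -0.27 and -0.44, and 1.77 and 1.85 in BP and BN. The FAM72A probe differed by -0.94 and -1.0 in DBP and DBN of H1299 and by -0.34 and -0.45 in H1299shRAD9, and by 0.02 and -0.05 in BP and BN of H1299. None of these was called. Without the arrays that stood apart, A_33_P3333187 differed by -0.73 in DBP and -0.77 in DBN of H1299. A difference between the lines was not called in the interaction (adjusted p = 0.632 for DBP and 0.658 for DBN, limma).

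**Figure D5:**
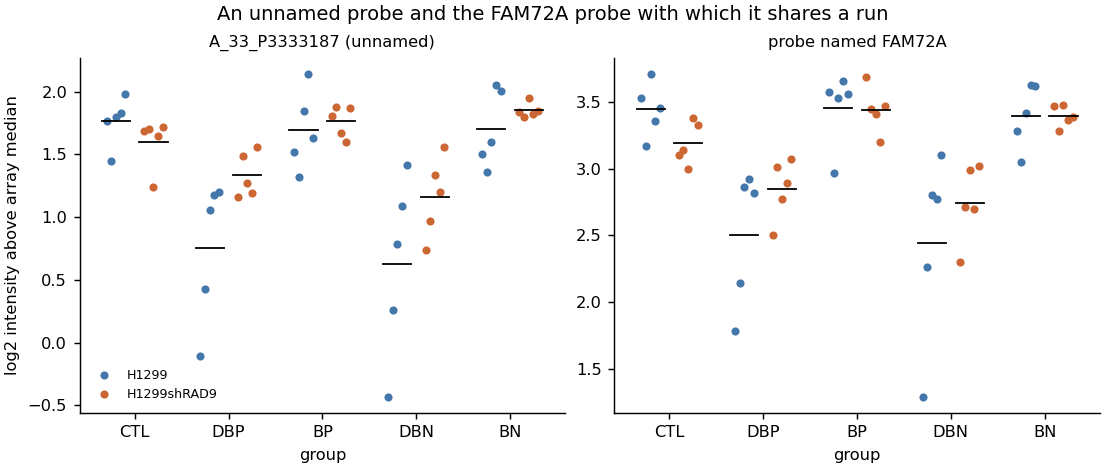
Log2 intensity above the array median of A_33_P3333187 and of the FAM72A probe that shares 27 bases with it, with a point for each array and a bar at the mean of 5. In both panels all H1299 DBP and DBN arrays lie below the H1299 CTL arrays, while in H1299shRAD9 they overlap CTL, and H1299 means of A_33_P3333187 fall from 1.77 in CTL to 0.75 and 0.63.

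Other unnamed probes with the smallest p in H1299 were uneven between arrays. A_33_P3298612 on chromosome 3 was -3.90 to -1.29 in CTL, with 3 of 5 arrays well above background, and differed by 1.60 in DBP and 1.72 in BN. A_33_P3411384, without a position and marked as an outlier on 11 arrays, and A_33_P3265415 on chromosome 7 differed by -2.06 and -1.19 in BP. A_32_P152696 on chromosome 9, 34658 bases from a probe for CDKN2B-AS, the antisense RNA of a cell cycle inhibitor locus, was 6.34, 6.27, 5.86, 6.05 and 6.48 in CTL and 4.98, 5.17, 5.08, 5.48 and 5.83 in DBN, without overlap. Its difference was -0.89 ± 0.24 (SE, adjusted p = 0.666, limma). A_33_P3346610 on chromosome 17, near a probe for ZNF750 on the opposite strand, differed by 0.40 in BN.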

How the data were processed

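The deposited files were 50 outputs of Agilent Feature Extraction 11.5.1.1, which per the file headers subtracted a fitted background and gave a processed intensity per spot (4x44K v2 arrays, Cy3 alone, hg19 positions). The authors also deposited log2 values, median normalized and filtered, which served as an alternative.

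Here log2 of the processed intensity, less the array median over the 34127 non-control probes, was averaged over the spots of a probe, without outlier spots. The 20107 features well above background on at least 38 arrays were fitted with limma 3.58.1 (lmFit, eBayes) in R 4.3.3. Cell lines were compared unpaired and irradiated groups with CTL with the replicate number as a block. Once group means were removed, arrays with the same number correlated on average at 0.47 to 0.51 in H1299shRAD9 and 0.14 to 0.41 in H1299, where not every pair was positive in BP and DBN, and near 0 between the lines. The study's methods name a paired test. Code was tested on simulated data. Precision is limited by 5 arrays a group. P-values measure the spread between these arrays.

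Probes named were those called in at least 3 line comparisons with 1 sign (the 6 largest and 6 smallest mean differences), the 3 largest rises and falls called in each irradiated group or else the 2 smallest p, the 2 on each side of the detection threshold, and the 4 most like a named neighbor within 10 kb. Others were chosen after their values were seen. The probes and lists were chosen with earlier results of these data known. Runs of at least 20 bases, and ungapped stretches (match 1, mismatch -2, score of at least 20), were sought on both strands against all named probes. Alternatives were 75th percentile scaling, normexp (offset 50), no detection filter, a 1.3-fold criterion, the authors' values, slide and replicate blocks, each replicate left out and, added after seeing the data, the arrays that stood apart left out.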

Additional observations from a re-analysis of the deposited data

Results flagged for a closer look

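In a group of 5 arrays, a lowest or highest array was set apart where its gap to the next array exceeded 0.71 of the group's range, a limit that chance passes in about 1 of 20 groups. Of 411 groups of the probes and values named, 26 passed, and the value of that array is given for each. H1299 DBP had 6, namely A_32_P53558 at 3.41, A_33_P3291329 at 3.47, A_32_P48615 at 3.74, A_33_P3340454 at -2.55, A_33_P3411384 at 7.23 and A_33_P3265415 at 8.98. In the other H1299 groups they were A_24_P246777 at 0.78, A_33_P3210561 at 2.22 and A_32_P48615 at 1.44 in DBN, A_33_P3352407 at 10.08 and A_33_P3298612 at -1.80 in BP, and A_33_P3235831 at 4.92, A_33_P3392350 at 2.18 and A_24_P636974 at -1.14 in BN. In H1299shRAD9 they were A_33_P3317460 at 4.65 and A_33_P3403356 at 4.14 in DBP, A_33_P3304097 at -1.82, A_33_P3378697 at 1.87 and RAD9A at 4.26 in DBN, A_33_P3340454 at -2.32 and A_33_P3407691 at -0.63 in BP, and A_33_P3333187 at 1.24 in CTL. In H1299shRAD9 BN they were A_33_P3317460 at 3.74, A_33_P3304097 at -1.56, A_33_P3333187 at 1.95 and the median deviation of the unnamed probes, less that of all features, at 0.24.

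For 5 probes every pair of an exposed array and its control moved one way in H1299shRAD9 and the opposite way in H1299, and whether the lines differed in this was not tested beyond the interaction, which called none of them. In DBN A_24_P101561 differed by 0.66 in H1299shRAD9 and -0.28 in H1299, and A_33_P3367970 by 0.49 and -0.68. In BN A_33_P3298612 differed by -1.55 and 1.72 and A_32_P152696 by 0.24 and -0.28. In DBP A_33_P3346610 differed by -0.48 and 0.62.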

How the results depend on the processing

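In the cell line comparisons the numbers of unnamed probes called in CTL, DBP, BP, DBN and BN were 135, 34, 42, 19 and 89. In both directions together these were 16.5%, 4.16%, 5.13%, 2.32% and 10.9% of the unnamed probes. The shares of all features were 12.9%, 5.38%, 6.56%, 2.35% and 7.47%. They were 86, 2, 9 and 0 in CTL, DBP, DBN and BN with normexp, 61, 19, 17 and 30 in CTL, DBP, BP and BN with the authors' values (which hold fewer probes), 19 and 57 in DBP and BN with the 1.3-fold criterion, 26 and 55 in BP and BN with 75th percentile scaling, and 20 and 5 in BP and DBN without the detection filter. With the slide as a block CTL gave 53 (6.48%, against 7.60% of all features). With the replicate block CTL gave 87 and DBN 63 (10.6% and 7.70%, against 8.84% and 6.53%), while same-numbered arrays of the lines were not alike. Without the arrays that stood apart, an alternative chosen after seeing the data, DBN gave 34. With each replicate left out the counts ranged from 56 to 159 in CTL, 4 to 43 in DBP, 7 to 44 in BP, 0 to 33 in DBN and 31 to 82 in BN. The shares of all features in these fits ranged from 6.73% to 14.1% in CTL and 1.48% to 7.50% in DBP. They ranged from 0.378% to 4.85% in DBN and 2.95% to 6.45% in BN, and reached 7.10% in BP. The excess of the unnamed median over all features without the detection filter was 0.0681 in CTL, 0.18 in DBN and 0.13 in BN and turned to -0.0242 in DBP and -0.0403 in BP, and it turned to -0.0193 and -0.0166 in BP without replicate 3 or 4, where it ranged up to 0.0941. In BN normexp turned A_33_P3352407 to 0.0867 and A_33_P3210561 to 0.0014.

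In H1299shRAD9 the 2 calls in DBP became 4 with 75th percentile scaling (0.489%, against 2.04% of all features). They became 1 with the 1.3-fold criterion (0.175%, against 1.79%) and 0 without the filter, with the slide block or without the replicate block. For these 0 calls the shares of all features were 0%, 0.0498% and 0.114%. The 6 in BP became 0 without the filter or the replicate block, where no feature was called. They became 1 with the authors' values (0.191%, against 1.09% of all features). The 9 in DBN became 5 with 75th percentile scaling (0.611%, against 2.26% of all features) or the authors' values (0.956%, against 3.28%). They became 0 without the filter, where no feature was called, and 2 without the replicate block (0.244%, against 0.667%). With each replicate left out the ranges were 0 to 36 in DBP, 0 to 7 in BP and 0 to 18 in DBN. The shares of all features ranged from 0% to 4.88% in DBP and 0% to 1.39% in BP, and were at least 0.129% in DBN. In H1299 DBN 7 (0.856%, against 0.712% of all features) were called with the slide block and 1 without the arrays that stood apart, and in the interaction 3 for BP (0.368% against 0.184%) and 1 for DBN (0.122% against 0.0697%) with the slide block and 5 for DBN without those arrays. With each replicate left out these were 0 to 2 in H1299 BP, 0 to 1 in H1299 DBN and 0 to 4 for the interaction in DBN. In the fits with 2 and 4 calls the shares were 0.245% against 0.0647% and 0.489% against 0.846% of all features. The fits of H1299 DBN with 1 call had 0.122% each, against 0.0498% and 0.139%. RAD9A in CTL passed the threshold with normexp (-0.50). In DBN it turned to -0.0858 with 75th percentile scaling and -0.1049 with normexp, and ranged from -0.2718 to 0.2477 with a replicate left out, and in BN it turned to 0.4804 with normexp. The slide block could not be fitted in the line comparisons of DBP, BP, DBN and BN. The cause of these changes was not tested. Dim probes near the detection threshold limit what can be measured, as their levels are close to background.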
